A study of Mus musculus with 22 samples.

Results

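The 4 housekeeping mRNA probes of a mouse miRNA panel, Actb, B2m, Gapdh and Rpl19, were followed across 22 mammary gland lanes. They were all the probes of the class Housekeeping in the raw lane files, 4 of 626 probes per lane, beside 599 endogenous miRNA probes. Female C57BL/6 mice aged 4 to 5 weeks were fed 1 of 4 diets for 3 weeks, and RNA of the 4th left mammary gland was counted on a NanoString nCounter panel, in which a fluorescent barcode is read for each captured molecule. The diets were flaxseed at 10% of the diet (6 lanes), flaxseed oil at 3.67% (oil, 5 lanes), the flaxseed lignan SDG at 0.15% (6 lanes) and the basal AIN-93G diet (5 lanes). The labels give no genotype or allele that differs between groups. Per the labels the authors left out 1 oil and 1 basal mouse of the 6 randomized to each diet, so the oil and basal lanes are numbered 1, 2, 3, 4 and 6.

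The 4 transcripts have unrelated jobs, which is why such genes are used together to judge the input and state of an RNA sample. Actb encodes cytoplasmic beta-actin, a building block of the cytoskeleton. B2m encodes beta-2-microglobulin, the light chain of MHC class I molecules on nucleated cells, Gapdh encodes a glycolytic enzyme abundant in skeletal muscle, and Rpl19 encodes a protein of the large ribosomal subunit. On a miRNA panel these probes read mRNA directly, without the ligated tag that the miRNA probes need. In a bulk gland, fewer cells of a type and less RNA per cell cannot be told apart.

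Endogenous totals were 260551 to 762146 counts per lane, and the background threshold, the mean plus 2 SD of the lane's 8 negative controls, was 17.5 to 66.8 counts. In 3 lanes 1 endogenous probe, miR-720, held a share of endogenous counts above 40%. It was 53.7% in flaxseed 3 (95% exact binomial interval 53.59% to 53.84%), 47.4% in SDG 5 (47.25% to 47.48%) and 65.4% in basal 1 (65.25% to 65.56%). In the other 19 lanes it was 2.37% to 8.61%. Many results are given both with and without some or all of the 3 lanes above 40%. The spread within diets and the most similar miRNAs are given with all lanes and without flaxseed 3 only. The tests of mRNA per miRNA count are given with all lanes only. The authors' deposited log2 table, which holds none of the 4 mRNAs, matched its own lane for all 16 flaxseed, oil and basal columns, while each of its 6 SDG columns lay closest to another SDG lane, so an SDG lane number here is that of the raw lane file. These intervals cover counting error only. Every endothelial, epithelial and red cell marker miRNA on the fixed lists exceeded background in every lane, as did the 6 leukocyte markers found on the panel, while 3 to 5 of the 5 adipocyte markers did.

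One lane stood far from the rest for B2m and Gapdh. Flaxseed 3 gave 1123 raw counts of Actb, 9 of B2m and 9 of Gapdh, but 3626 of Rpl19. Its background threshold was 17.5 counts, so B2m and Gapdh were not above background there, and ratios with either gene in that lane are limits and not measurements. Its raw Actb count was the lowest of the 22 lanes, while its raw Rpl19 count was exceeded only in basal 6. The strongest ligation control read 13315 counts in flaxseed 3, against 24509 to 41550 in the other lanes, and the part of ligation in the mRNA counts was not tested.

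Counts were divided by a lane factor from the 6 positive controls, and levels below are such scaled counts. A probe's capture efficiency is its own, so ratios, sums and mean levels of different probes were followed from lane to lane. Such sums and means mix probes of different capture efficiency. Actb ranged over the 6 flaxseed lanes from 1117 (flaxseed 3) through a median of 5801 to 12084. The 5 oil lanes had 10430.5, 7674, 11048, 15584 and 9345. SDG lanes had 4504 at the lowest, 5279 at the median and 11886 at the highest (SDG 2). Basal lanes had 9599, 7584, 8244, 8466 and 12340. Oil and basal lanes overlapped throughout, and 5 of 6 SDG lanes lay below every oil and basal lane. SDG lanes were low for most of the panel under this scaling, so this was not particular to Actb. The median log2 fold change over the 258 features tested below was -0.50 for SDG against basal and 0.79 for oil against SDG.

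B2m was at 8.95 in flaxseed 3, with a flaxseed median of 7101 and a highest lane of 12995. Oil lanes had 6655, 5806, 7705, 10939 and 9232 of this MHC class I subunit. SDG lanes ran from 822 (SDG 5) through a median of 5149 to 8359. Basal lanes had 4866, 5274, 5485, 8903 and 12463. All 4 diets overlapped, and the 2 lowest lanes, flaxseed 3 and SDG 5, were both led by miR-720.

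The glycolytic Gapdh was at 8.95 in flaxseed 3, 509.7 at the flaxseed median and 1058 in flaxseed 5. The oil lanes had 356, 491, 342, 508 and 459. In SDG lanes it ran from 121 (SDG 5) through 217 to 419, and in basal lanes it was 496, 231, 586, 978 and 553. All but 1 of the 5 basal lanes lay above all 6 SDG lanes, and the exception was basal 2. The median over all 258 features was also lower in SDG than in basal lanes, by -0.50. Gapdh stood 6.73 to 17.8 times above the background threshold in the 19 lanes not led by miR-720.

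Rpl19 had the smallest spread of the 4 mRNAs over the 22 lanes, with an SD of log2 scaled counts of 0.61. Without flaxseed 3 that SD was 0.60 for Rpl19 and smaller for Actb, at 0.57. Rpl19 ranged over flaxseed lanes from 1207 through a median of 1740 to 3741. Oil lanes had 2160, 2379, 2346, 3228 and 1979, SDG lanes 1049.5 at the lowest, 1237 at the median and 2851 at the highest, and basal lanes 3412, 1745, 2005, 1547 and 4341. The ribosomal transcript was not low in any lane led by miR-720: flaxseed 3 had 3607, SDG 5 had 1921 and basal 1 had 3412, each above its diet's median.

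**Figure D1:**
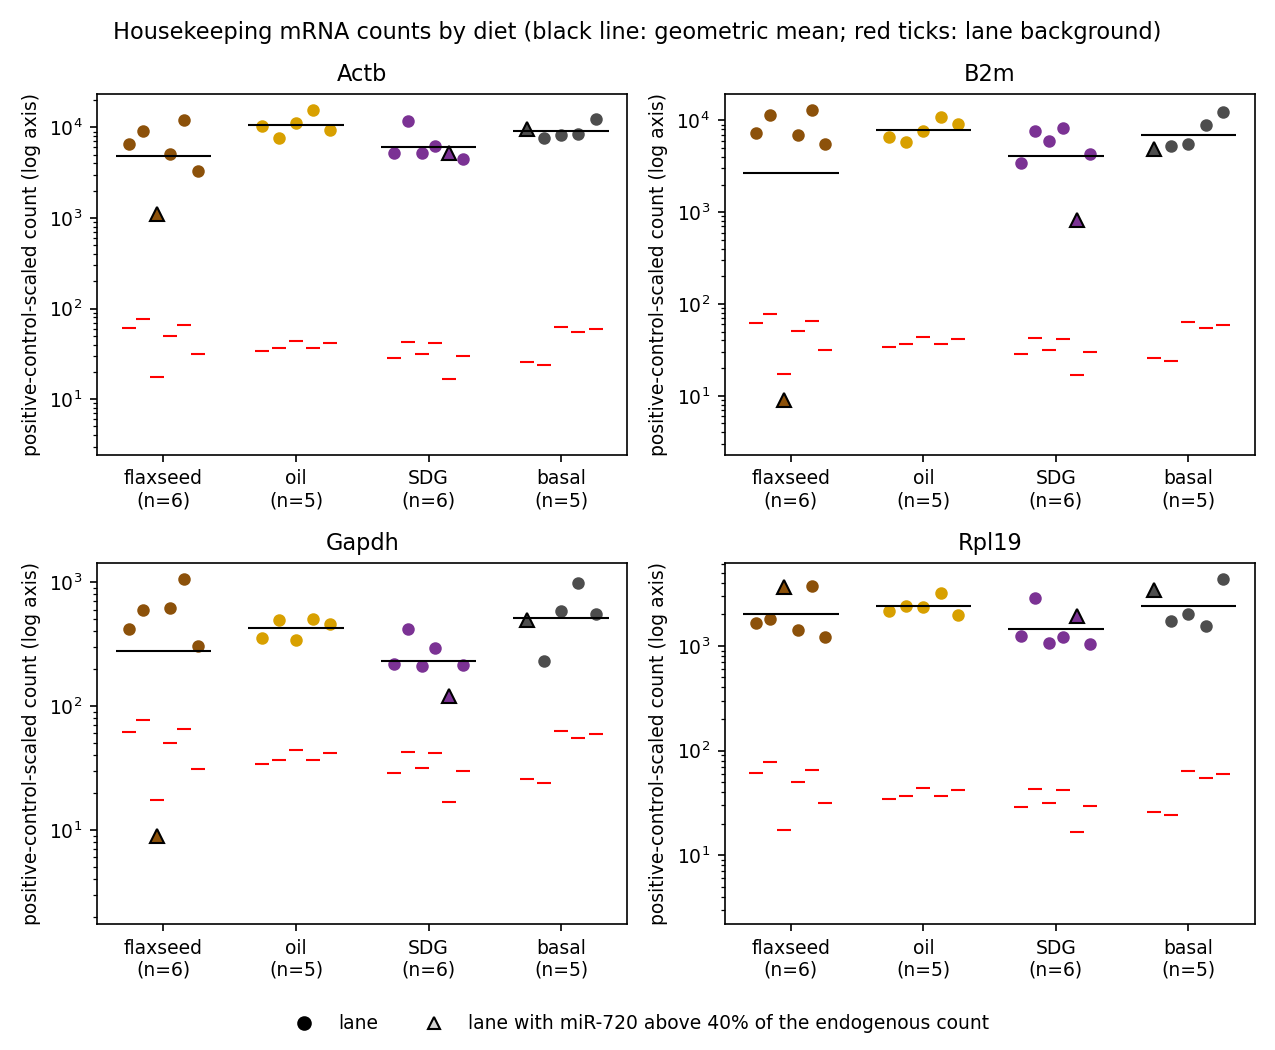
Positive-control-scaled counts of Actb, B2m, Gapdh and Rpl19 in each lane by diet, on log axes, with the geometric mean of each diet as a black line, the lane's background threshold as a red tick and the 3 lanes with miR-720 above 40% as triangles. Flaxseed 3 lies below its background tick for B2m and Gapdh at 8.95 but at 3607 for Rpl19.

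The spread within diets was measured as the SD of log2 scaled counts around the diet means. It was 2.23 for B2m, 1.38 for Gapdh, 0.73 for Actb and 0.58 for Rpl19, against a median of 0.77 over the 254 miRNA probes above background in at least 5 lanes. B2m had a larger SD than 99.6% of those miRNAs and Gapdh than 94.1%, whereas Rpl19 exceeded 23.6%. Without flaxseed 3 the SDs were 0.79 for B2m, 0.60 for Gapdh, 0.50 for Actb and 0.55 for Rpl19. The ranks of B2m and Gapdh near the top thus rested on that lane. Without it 70.9% of miRNAs had a smaller SD than B2m and 35.8% a smaller SD than Gapdh. The median SD of the miRNAs was then 0.66.

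None of the 4 mRNAs passed edgeR's quasi-likelihood test, adjusted by Benjamini-Hochberg over all 258 features, in any of the 6 comparisons of diets or in the test for any diet. The share of all features called was 0% for flaxseed, oil or SDG against basal and for flaxseed against SDG, 1.94% for flaxseed against oil, 6.59% for oil against SDG and 2.33% for any diet. One mRNA contrast of the 24 had an unadjusted p under 0.05, and DESeq2 called 0 mRNAs. Each lane is labelled as its own mouse, and the p-values measure the spread between these lanes.

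Of the 24 fitted changes, that of Gapdh between SDG and basal was the largest in size. Mean log2 scaled counts were 7.85 ± 0.60 in SDG lanes and 9.01 ± 0.75 in basal lanes (SD, n = 6 and 5), a fitted log2 fold change of -1.21 ± 0.57 (SE) with an unadjusted edgeR p of 0.0434 and an adjusted p of 0.391. Rpl19 differed by -0.74 ± 0.40 in the same comparison (edgeR adjusted p = 0.391), Actb by -0.53 ± 0.44 and B2m by -0.54 ± 0.73. The median fitted change over all 258 features was -0.50. Without the 3 lanes led by miR-720, Gapdh was -1.11 and passed (edgeR adjusted p = 0.0411), as did 35.4% of the features tested there, every one of them lower in SDG, with a median change of -0.71.

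Oil against SDG gave positive fitted changes for all 4 mRNAs, with none past the test. Actb was 0.76 ± 0.44, Gapdh 0.81 ± 0.56, B2m 0.66 ± 0.73 and Rpl19 0.63 ± 0.40 (log2 ± SE, edgeR adjusted p = 0.178, 0.242, 0.435 and 0.200). The median over all features was 0.79. In a fit of these 2 diets alone Actb (edgeR adjusted p = 0.0399) and Gapdh (edgeR adjusted p = 0.0217) passed, where 58.5% of features did. With lanes scaled by their miRNA counts in place of the positive controls, the log2 fold change became -0.0062 for Actb, -0.075 for B2m and -0.14 for Rpl19, Gapdh kept its direction at 0.025, and the median over all features was -0.0070.

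For flaxseed against basal no mRNA passed the test. The log2 fold changes were -0.58 ± 0.44 for Actb, -0.0048 ± 0.74 for B2m, -0.18 ± 0.56 for Gapdh and -0.22 ± 0.40 for Rpl19 (edgeR adjusted p = 0.996 for each). The mean over lanes on the log scale stood apart from the fitted change for B2m, whose mean log2 scaled count was 11.39 ± 4.06 in flaxseed lanes and 12.75 ± 0.59 in basal lanes (SD, n = 6 and 5), with flaxseed 3 at 3.16. Without that lane the flaxseed mean was 13.03 ± 0.53.

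The remaining comparisons also stayed below the threshold. Flaxseed against oil gave -0.80 ± 0.44 for Actb (edgeR adjusted p = 0.427), and flaxseed against SDG gave 1.03 ± 0.55 for Gapdh (edgeR adjusted p = 0.386). Oil against basal gave between -0.40 for Gapdh and 0.23 for Actb.

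Ratios between mRNAs of the same lane carry no lane scaling. With all lanes, 0 of 36 ratio tests (6 ratios in 6 comparisons) passed an exact two-sided permutation test, 0 had an unadjusted p under 0.05, and the smallest exact p was 0.0909 (Actb/Rpl19, flaxseed against oil; adjusted p = 1). Flaxseed 3 stood apart here too. Its Actb/B2m log2 ratio was 6.96, against -0.74 to -0.10 in the other flaxseed lanes, and its B2m/Rpl19 ratio was -8.65, against 1.80 to 2.67.

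Without flaxseed 3, 6 of 36 ratio tests passed, each with an adjusted exact p of 0.0476, and all 6 involved flaxseed. These 6 tests are not independent, since the same flaxseed lanes enter each and the ratios share mRNA counts. The unadjusted exact p was 0.00433 against SDG and 0.00794 against oil or basal, the smallest these group sizes allow. The Actb/B2m log2 ratio was -0.16, -0.35, -0.44, -0.10 and -0.74 in flaxseed lanes, against 0.65, 0.40, 0.52, 0.51 and 0.02 in oil lanes and 0.98, 0.52, 0.59, -0.07 and -0.01 in basal lanes. No flaxseed lane reached the lowest oil or basal lane. The mean difference was -0.78 against oil and -0.76 against basal.

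With flaxseed 3 left out, Gapdh stood higher in the other 5 flaxseed lanes relative to Actb and to Rpl19 than in oil and SDG lanes. With flaxseed 3 included, the mean Actb/Gapdh difference was -0.49 against oil and -0.58 against SDG. That of Gapdh/Rpl19 then had the opposite sign, -0.38 against oil and -0.21 against SDG. The values below leave flaxseed 3 out. The Actb/Gapdh log2 ratio was 3.94, 3.93, 3.04, 3.51 and 3.41 in flaxseed lanes, against 4.87, 3.97, 5.01, 4.94 and 4.35 in oil lanes. SDG lanes ranged from 4.39 to 5.45. The flaxseed lanes lay below all lanes of both diets, by -1.06 against oil and -1.15 against SDG on average. The Gapdh/Rpl19 log2 ratio averaged -1.71 ± 0.33 in flaxseed lanes (SD, n = 5), -2.49 ± 0.28 in oil lanes (SD, n = 5) and -2.66 ± 0.69 in SDG lanes (SD, n = 6), differences of 0.77 and 0.95. Against basal lanes, where Gapdh/Rpl19 spanned -2.97 to -0.66, neither Gapdh ratio passed.

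Leaving out SDG 5 as well kept 6 passing tests, but leaving out all 3 lanes led by miR-720 left 0, with a smallest adjusted exact p of 0.0571. The groups still did not overlap in any of the 6, and each had the smallest exact p its group sizes allow, 0.0159 against the 4 basal lanes left and 0.00794 in the other 5. With p counted from absolute differences 6 passed there too (adjusted exact p = 0.0476). The 6 differences there kept the signs they had without flaxseed 3, from -1.06 to 0.77. The level of striated muscle miRNAs also varied between these lanes: the 5 markers summed to 7487 to 61049 CPM, here of endogenous counts without miR-720, in the flaxseed lanes other than lane 3, 495.5 to 4770.2 in oil lanes, 586 to 70368 in SDG lanes and 556 to 190988 in basal lanes. Of the 5 markers, 1 to 5 exceeded background in a lane. SDG 5 had the highest sum of the SDG lanes together with their highest Actb/Gapdh ratio, 5.45. Their part in the ratio differences was not tested.

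**Figure D2:**
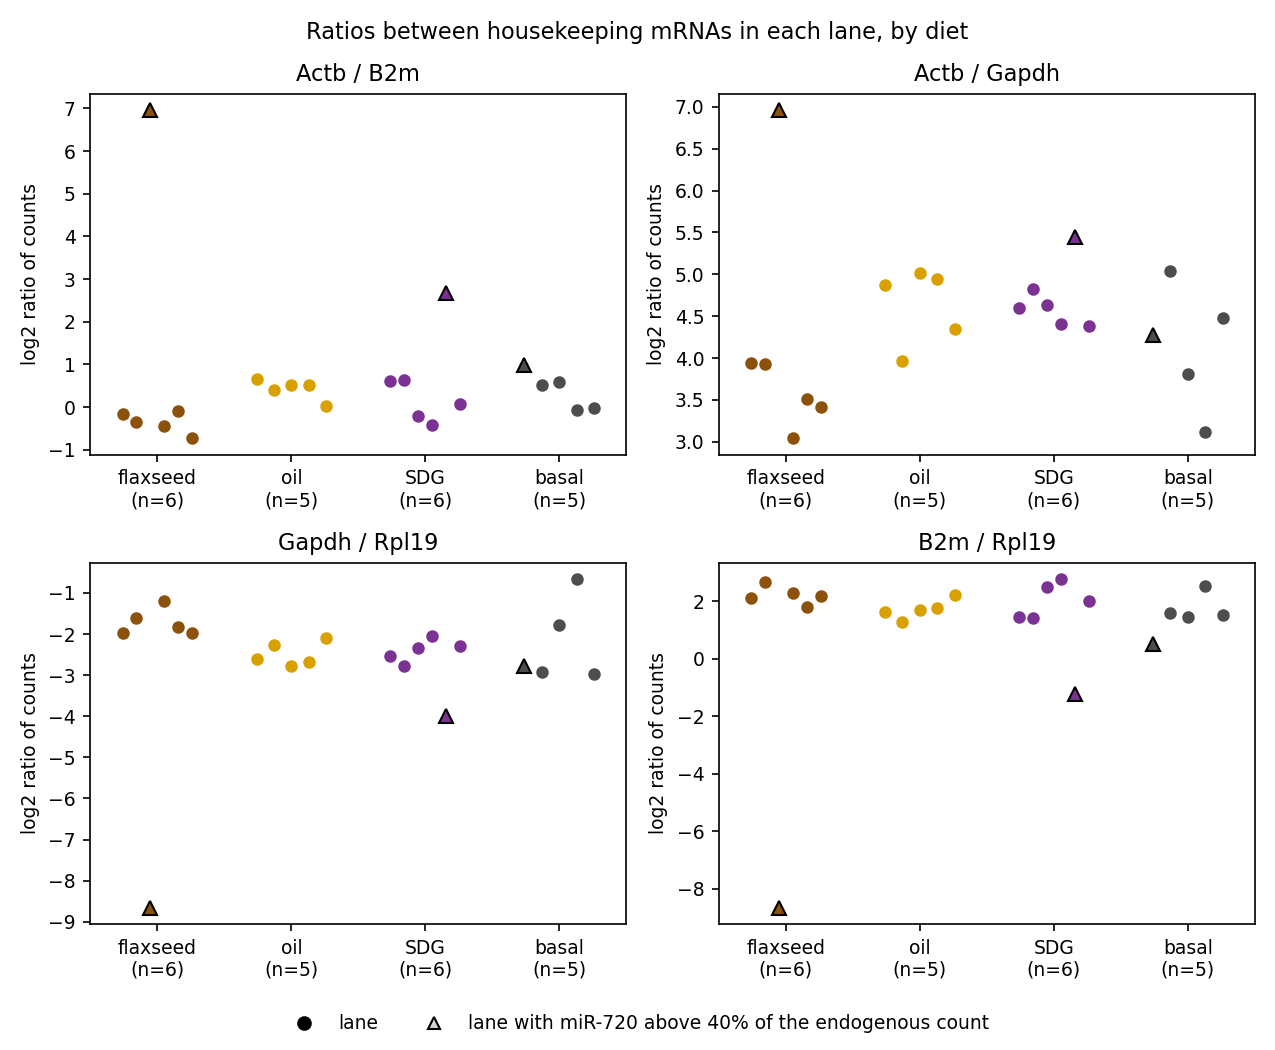
Log2 ratios of raw counts of mRNA pairs in each lane by diet, with the 3 lanes led by miR-720 as triangles. Flaxseed 3 stands apart in all 4 panels, and the other 5 flaxseed lanes lie below every oil and basal lane for Actb/B2m and below every oil and SDG lane for Actb/Gapdh.

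Across the 22 lanes the mRNAs did not move as 1 block. The relation of B2m to Actb had a Pearson r of 0.82 and a Spearman rho of 0.70 (permutation p = 0.00028 and 0.00039, adjusted p = 0.00064 and 0.00112 over 6 pairs), and that of Gapdh to B2m had an r of 0.93 and a rho of 0.70 (adjusted p = 6e-05 and 0.00112, permutation). Gapdh against Actb had an r of 0.82 and a rho of 0.58 (adjusted permutation p = 0.00064 and 0.00765). Without the 2 lanes farthest from the median of the x axis, r was 0.60, 0.66 and 0.57 for these 3 pairs. Both axes share the lane factor, so part of any such r can come from scaling.

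Rpl19 was the odd member with all lanes included. Its r was 0.32 with Actb, -0.17 with B2m and -0.01 with Gapdh (adjusted permutation p = 0.214, 0.597 and 0.970), although its rho with Actb was 0.69 (adjusted permutation p = 0.00112). Leaving out flaxseed 3 gave an r of 0.85 between Rpl19 and Actb (adjusted permutation p = 6e-05) and 0.33 between Rpl19 and B2m, and 5 of 6 pairs passed. In the 19 lanes not led by miR-720 all 6 pairs passed, and Rpl19 with Actb had an r of 0.88 and a rho of 0.92. The Actb/Rpl19 ratio had the smallest SD of the 6 ratios there, 0.29 on the log2 scale, and Actb/Gapdh the largest, 0.63.

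**Figure D3:**
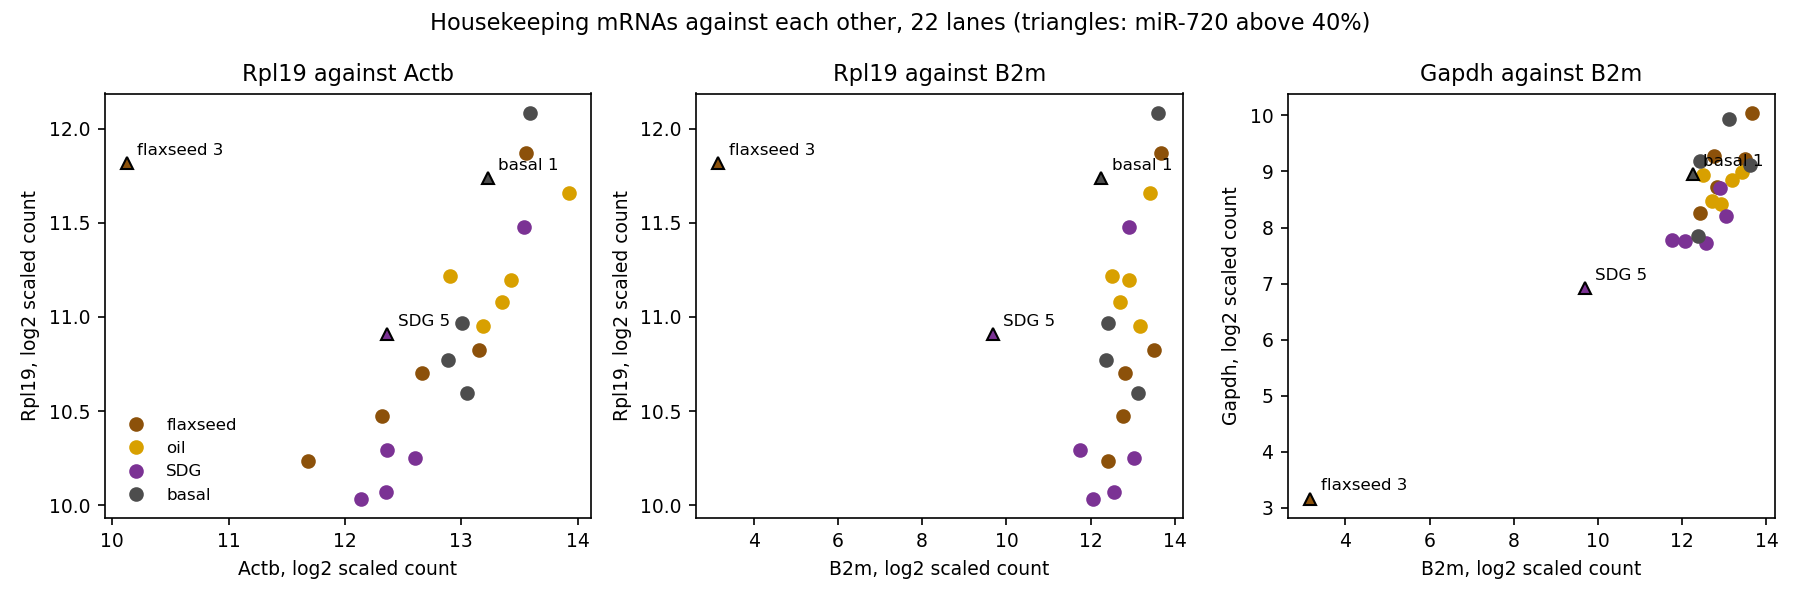
Log2 scaled counts of Rpl19 against Actb, Rpl19 against B2m and Gapdh against B2m in the 22 lanes, coloured by diet, with the 3 lanes led by miR-720 as labelled triangles. Rpl19 follows Actb in the lanes other than flaxseed 3 (r = 0.85), while Gapdh and B2m are low together in flaxseed 3 and SDG 5.

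The lanes led by miR-720 were also the 3 with the lowest B2m/Rpl19 log2 ratio, at -8.65 in flaxseed 3, -1.22 in SDG 5 and 0.51 in basal 1, against 1.29 to 2.78 in the other 19. They differed in other ways. Per 100 endogenous counts without miR-720, the 4 mRNAs summed to 1.70 in flaxseed 3, 2.41 in SDG 5 and 12.7 in basal 1, against 2.31 to 7.15 in the other 19 lanes. Flaxseed 3 was below that range, SDG 5 within it and basal 1 above it. Within the 19 other lanes none of the 4 relations of mRNA level to the miR-720 share passed, with r from -0.46 (Gapdh) to -0.33 (Rpl19) and adjusted permutation p from 0.172 to 0.248. Centred on the diet means, r for Gapdh was -0.61 and passed (adjusted permutation p = 0.0310), though its rho of -0.50 did not (adjusted permutation p = 0.106).

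Set against the miRNA signal, basal 1 was the extreme. It held 665 Actb, 337 B2m, 34.4 Gapdh and 236 Rpl19 counts per 10000 endogenous counts without miR-720, against 73.7 to 373, 89.4 to 271, 6.02 to 18.9 and 27.1 to 89.4 in the 19 lanes not led by miR-720. Its endogenous scaled count without miR-720, 144342, was the lowest of all lanes. Between diets, 0 of 24 tests of mRNA per miRNA count passed, 0 had an unadjusted p under 0.05, and the smallest exact p was 0.0823 (Actb, flaxseed against oil; adjusted p = 0.935).

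Relations of mRNA level to the endogenous count without miR-720 depended on the measure and on the 3 lanes. With 22 lanes, r was 0.40 for Actb, 0.36 for B2m, 0.42 for Gapdh and 0.30 for Rpl19, and none of 16 relations to miRNA measures passed by r (smallest adjusted permutation p = 0.0653). By rank, B2m (rho = 0.70) and Gapdh (rho = 0.66) passed (adjusted permutation p = 0.00832 and 0.00968). With 19 lanes r was 0.74 for Rpl19, 0.71 for B2m and 0.70 for Gapdh (adjusted permutation p = 0.00427 each), and 0.55 for Actb (adjusted permutation p = 0.0524). Centred on the diet means, the 19-lane r was 0.65 for B2m, 0.64 for Rpl19, 0.55 for Gapdh and 0.45 for Actb, and B2m and Rpl19 passed (adjusted permutation p = 0.0302 each). Both axes share the lane factor.

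**Figure D4:**
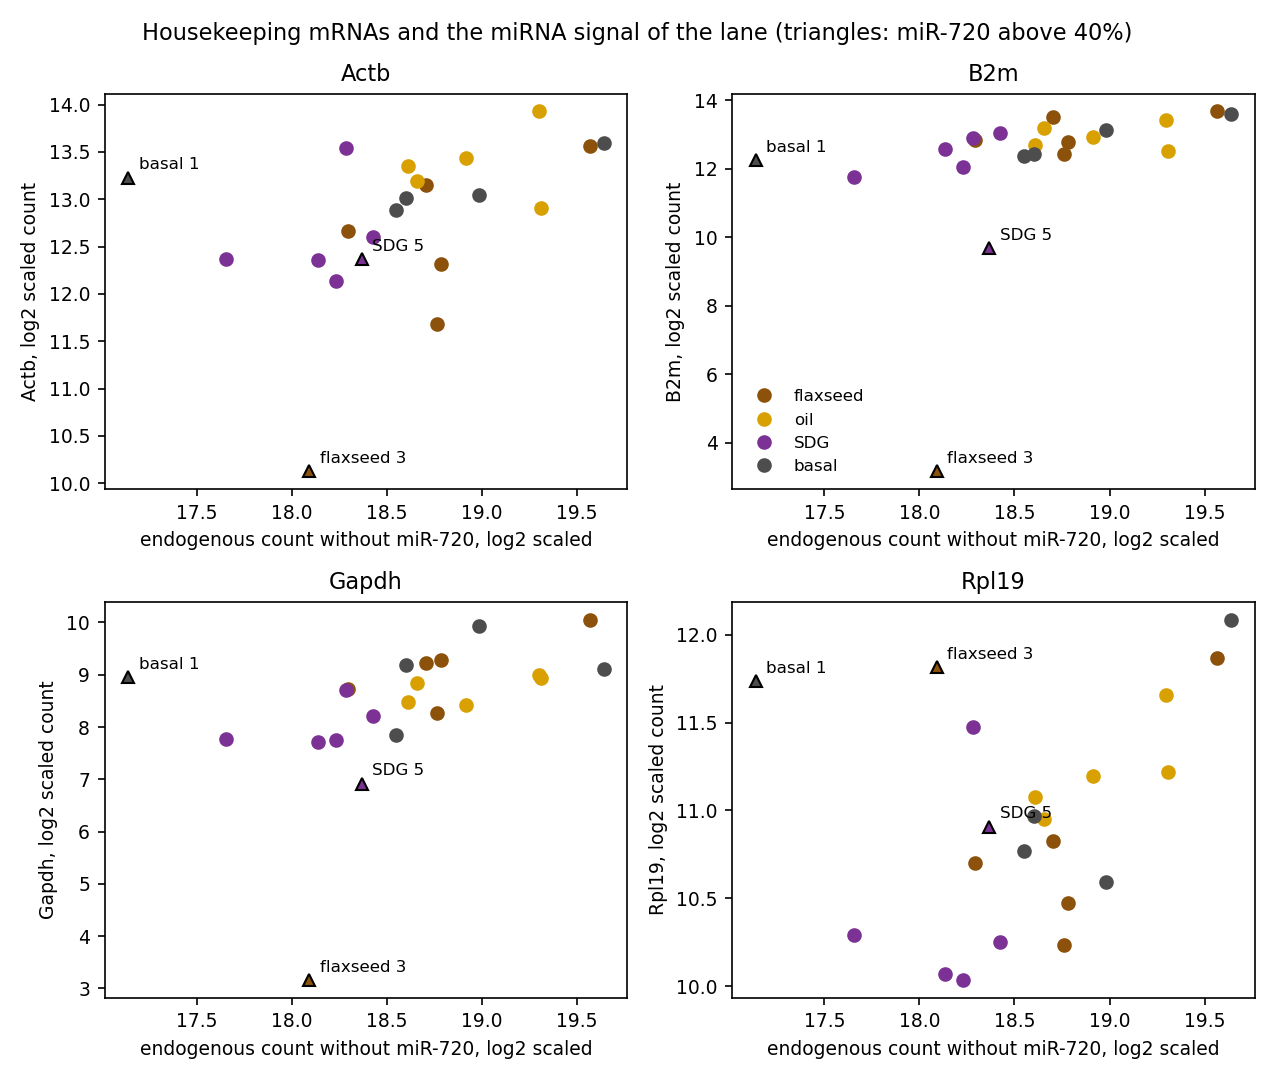
Log2 scaled count of each mRNA against the log2 scaled endogenous count without miR-720 in the 22 lanes, coloured by diet, with the 3 lanes led by miR-720 as labelled triangles. Basal 1 lies at the lowest miRNA count (144342 before the log), and r in the other 19 lanes is 0.74 for Rpl19 and 0.55 for Actb.

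Leukocyte miRNAs split the lanes. The mean log2 level of miR-150, a lymphocyte miRNA, and miR-142-3p, a miRNA of blood-forming cells, was 14.76 to 15.91 in oil 1, oil 3, oil 4, SDG 1 and SDG 2, and 11.50 to 13.19 in the other 17 lanes. No pooled correlation is given. Within the 17 lanes Gapdh had an r of -0.76, Actb of -0.72, B2m of -0.72 and Rpl19 of 0.01, none of which passed (adjusted permutation p = 0.0653, 0.0653, 0.172 and 0.978). Without flaxseed 3 and basal 1, the farthest on the x axis, these were -0.31, -0.18, -0.02 and -0.33. The size of the negative values of Gapdh, Actb and B2m thus rested on those lanes. Rpl19 went the other way, from 0.01 to -0.33. The 6 leukocyte markers summed to 13549 to 34015 CPM in flaxseed lanes, 13308 to 150604 in oil lanes, 17962 to 134181 in SDG lanes and 13460 to 18366 in basal lanes.

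Gapdh ratios followed the muscle-restricted miR-1 and miR-133a outside the lanes led by miR-720. In the 19 lanes Actb/Gapdh had an r of -0.85 and a rho of -0.85 with their mean log2 level, and Gapdh/Rpl19 an r of 0.84 and a rho of 0.82 (adjusted permutation p = 0.00036 and 0.00024 for the first, 0.00024 and 0.00048 for the second, over 24 relations). Without basal 3 and basal 4, the farthest on the x axis, r was -0.83 and 0.80. After centring on the diet means r was -0.74 and 0.79 (adjusted permutation p = 0.00444 and 0.0024). B2m/Gapdh had an r of -0.63 (adjusted permutation p = 0.0293), which was -0.54 after centring (adjusted permutation p = 0.144). The 5 lanes high in leukocyte miRNAs had a median muscle level of 7.36 and a median Actb/Gapdh count ratio of 29.3. In the other 17 lanes, which include the 3 led by miR-720, these were 11.63 and 19.4. The part of that split in these relations was not tested. In oil 3, SDG 1, SDG 2 and SDG 3 only 1 of the 5 muscle markers exceeded background. At least 1 of miR-1 and miR-133a was thus not above background there.

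With all 22 lanes none of the 24 relations of ratios to miRNA measures passed by r, where Actb/Gapdh had -0.39 and Gapdh/Rpl19 0.11, and by rank B2m/Gapdh passed (rho = -0.67, adjusted permutation p = 0.0197). Without flaxseed 3 alone Actb/Gapdh (r = -0.62, adjusted permutation p = 0.0348) and B2m/Gapdh (r = -0.68, adjusted permutation p = 0.0204) passed, and Gapdh/Rpl19 had an r of 0.46 (adjusted permutation p = 0.290). SDG 5, which that set still holds, had a muscle level of 13.84 with a Gapdh/Rpl19 log2 ratio of -3.99. The Gapdh level itself had an r of 0.54 with muscle miRNAs in the 19 lanes (adjusted permutation p = 0.0524).

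**Figure D5:**
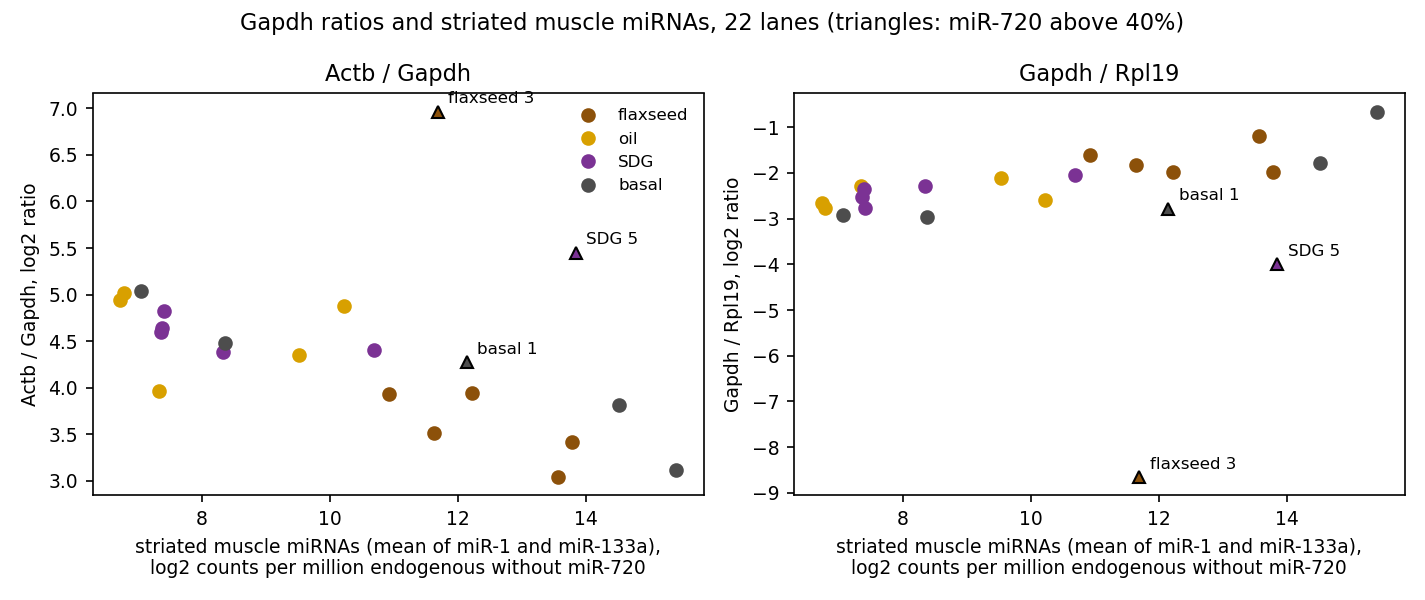
Log2 ratios Actb/Gapdh and Gapdh/Rpl19 against the mean log2 CPM of miR-1 and miR-133a in the 22 lanes, coloured by diet, with the 3 lanes led by miR-720 as labelled triangles. In the other 19 lanes Actb/Gapdh spans 3.04 to 5.04 and is lower where the muscle miRNAs are higher (r = -0.85). Gapdh/Rpl19 spans -2.97 to -0.66 in those 19 lanes and is higher where the muscle miRNAs are higher (r = 0.84). In oil 3, SDG 1, SDG 2 and SDG 3 at least 1 of miR-1 and miR-133a was not above background.

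The 3 miRNAs whose log2 scaled counts were most like each mRNA over the 22 lanes overlapped for B2m and Gapdh and for no other pair of mRNAs. For Actb they were miR-296-5p (r = 0.84), miR-484 (0.79) and miR-191 (0.78), for B2m miR-331-3p (0.94), miR-103 (0.94) and miR-125a-5p (0.92), and for Gapdh miR-331-3p (0.91), miR-125a-5p (0.89) and miR-434-3p (0.88). For Rpl19 they were miR-1944 (0.87), miR-804 (0.73) and miR-664 (0.70). These are descriptions over points that share the lane factor. Without flaxseed 3, miR-1944 remained first for Rpl19 with 0.86, while miR-484 stood at place 40 for Actb with 0.51. None of the miRNAs named for B2m or Gapdh then stayed among its 3 most similar. For B2m, miR-331-3p stood at place 4 with 0.80, miR-125a-5p at place 7 and miR-103 at place 18. For Gapdh, miR-331-3p stood at place 5, miR-125a-5p at place 9 and miR-434-3p at place 17. The overlap of B2m and Gapdh is thus given for all 22 lanes only, and neither mRNA was above background in flaxseed 3.

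Mature sequences are shown 5′ to 3′ for the 6 of these miRNAs that RefSeq for GRCm38.p6 holds. That of the leukocyte miR-142-3p (listed there as miR-142a-3p) is added. The seed, bases 2 to 8, is in capitals. They are shown because B2m and Gapdh shared 2 of their 3 most similar miRNAs with all lanes included, and Actb and Rpl19 shared none. All the seeds shown differed.
miR-331-3p (chr10:93963783-93963803, minus strand; B2m and Gapdh): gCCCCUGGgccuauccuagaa
miR-125a-5p (chr17:17830817-17830840, plus strand; B2m and Gapdh): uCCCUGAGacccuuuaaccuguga
miR-434-3p (chr12:109594565-109594586, plus strand; Gapdh): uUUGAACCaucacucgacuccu
miR-296-5p (chr2:174267093-174267113, minus strand; Actb): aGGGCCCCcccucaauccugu
miR-484 (chr16:14159630-14159651, plus strand; Actb): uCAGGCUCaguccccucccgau
miR-804 (chr11:50357799-50357820, minus strand; Rpl19): uGUGAGUUguuccucaccugga
miR-142-3p (chr11:87756903-87756925, plus strand; leukocyte measure): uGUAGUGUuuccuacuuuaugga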

How the data were processed

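For each lane the authors deposited unscaled counts of every probe, controls included. A deposited log2 table, scaled by the authors by a rule not given in the sources used here, was only compared with the lanes. Counts were divided by the geometric mean of the 6 positive controls over its mean across lanes. Levels were tested with edgeR 4.0.16 (quasi-likelihood, diet as the factor) in R 4.3.3 on 258 features, the 4 mRNAs and 254 endogenous probes above background in at least 5 lanes, at an adjusted p of 0.05, with DESeq2 1.42.0 as an alternative. Ratios were tested by exact permutation, where the two-sided p is 2 times the smaller tail. The first version counted absolute differences, and this change was made after results were seen. Relations used 100000 permutations, and 1e-05 is the smallest p they can give. Muscle and leukocyte levels are mean log2 CPM of endogenous counts without miR-720, with a pseudocount of 1. The code was tested on simulated data. Replicate numbers were not treated as pairs in the main fit. No comparison had every same-numbered pair correlated above 0.1, but SDG against basal had 4 of 5, up to 0.54. Since each SDG column of the authors' table lay closest to another SDG lane, pairing with SDG lanes could not be judged. The members, lists and thresholds were chosen with earlier results of these data known, as were the leukocyte limit of 14 and the left-out lanes. The named genes are the 4 mRNAs, the miRNAs they are set against and the 3 most similar miRNAs of each. Depth was 260551 to 762146 endogenous counts per lane.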

Additional observations from a re-analysis of the deposited data

Results flagged for a closer look

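Of 56 sets of lanes (14 measures in 4 diets), 22 had a lane farther from the rest of its diet than Dixon's 95% limit, where chance gives about 1 in 20. Flaxseed 3 accounted for 10, SDG 5 for 5, oil 2 for 3, basal 1 for 3 and SDG 2 for 1. The sets overlap, since 1 count enters several ratios.

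In flaxseed 3 the log2 scaled counts of B2m and Gapdh were both 3.16, and the log2 ratios were 6.96 for Actb/B2m, 6.96 for Actb/Gapdh, -1.69 for Actb/Rpl19, 0.00 for B2m/Gapdh, -8.65 for B2m/Rpl19 and -8.65 for Gapdh/Rpl19. Its B2m and Gapdh log2 ratios to the endogenous count without miR-720 were both -14.93. SDG 5 had log2 ratios of 2.68 for Actb/B2m, 1.46 for Actb/Rpl19, -1.22 for B2m/Rpl19 and -3.99 for Gapdh/Rpl19, and a B2m ratio to the miRNA count of -8.68. Basal 1 was high relative to the miRNA count, with -3.91 for Actb, -4.89 for B2m and -5.40 for Rpl19. These are the 3 lanes in which miR-720 exceeded 40%, and its part in the mRNA values was not tested.

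Oil 2 had an Actb/Rpl19 log2 ratio of 1.69, against 2.24 to 2.27 in the other oil lanes, a B2m/Gapdh ratio of 3.56 and an Actb ratio to the miRNA count of -6.40. SDG 2 had an Actb log2 scaled count of 13.54, against 12.14 to 12.61 in the other SDG lanes.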

How the results depend on the processing

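The 0 of 4 mRNAs called held in all 6 comparisons and the any-diet test under TMM, miRNA-count, 3-control and background-subtracted scaling, no filter, DESeq2 (pairwise comparisons), the replicate block and each left-out lane. The exceptions were SDG against basal without the 3 lanes led by miR-720 (1 called) and oil against SDG fitted alone (2 called). The replicate block turned Gapdh in flaxseed against oil to -0.10 (log2) and changed no call among the mRNAs. Over all features, oil against SDG called 17 in the 22-lane fit, 41 by DESeq2, 50 with the block, 116 without the 3 lanes, 5 after background subtraction, and 0 by TMM, miRNA-count scaling or with no filter; flaxseed against oil called 5, 10, 1, 10, 1 and 0 in that order, and the test for any diet called 6, against 32 without the 3 lanes and 0 by TMM or with the block. With 1 lane left out these counts ranged from 0 (without SDG 6) to 57 (without basal 1), 0 to 9 (without oil 6) and 0 to 14 (without flaxseed 3). DESeq2 also called 8 for oil against basal and 1 each for flaxseed against SDG and SDG against basal. TMM moved the median change of all features in oil against SDG to 0.0044, against 0.79. The cause of a changed value was not tested.

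Directions that turned were of log2 fold changes that had not passed. TMM scaling gave -0.40 (Actb) and -0.27 (B2m) for oil against basal, 0.0064 (B2m) and 0.49 (Rpl19) for flaxseed against oil, -0.042 (B2m) for flaxseed against SDG, and -0.049 (B2m) and -0.14 (Rpl19) for oil against SDG. Scaling by the miRNA count gave -0.37 (Actb) and -0.22 (B2m) for oil against basal, 0.22 (Rpl19) for flaxseed against oil, -0.11 (B2m) for flaxseed against SDG, and -0.0062 (Actb), -0.075 (B2m) and -0.14 (Rpl19) for oil against SDG. The 3 strongest positive controls gave 0.015 for B2m in flaxseed against basal, and background subtraction gave 0.027 for Actb/Gapdh in flaxseed against oil. Without the 3 lanes led by miR-720, flaxseed against basal gave 0.14 (B2m) and 0.034 (Gapdh), flaxseed against oil 0.13 (B2m), flaxseed against SDG 0.12 (Actb) and oil against basal 0.0054 (Rpl19).

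Ratio tests that passed numbered 0 with all lanes and 0 without the 3 lanes, but 6 without flaxseed 3 and SDG 5, and 6 without the 3 lanes when p counted absolute differences (both added after seeing the data). Without the 3 lanes, under either definition of p, Actb/B2m was -0.61 (flaxseed against basal) and -0.78 (against oil), and Gapdh/Rpl19 0.77 (against oil) and 0.68 (against SDG); without flaxseed 3 and SDG 5 they were -0.76, -0.78, 0.77 and 0.68. Relations that passed numbered 6 of 6 mRNA pairs, 3 of 16 levels and 3 of 24 ratios without the 3 lanes, and 6, 3 and 2 when also centred. Without the 3 lanes, r was 0.67 (Rpl19 and B2m; 0.64 centred), 0.57 (Rpl19 and Gapdh; 0.52 centred), 0.12 (B2m and muscle), -0.33 (Rpl19 and leukocyte) and, centred, 0.22 (Actb and leukocyte). With the 6 leukocyte miRNAs found of 7, r for Rpl19 was -0.31.

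Leaving out 1 lane at a time, log2 fold changes ranged for flaxseed against basal from -0.24 to 0.27 (B2m), -0.54 to 0.11 (Gapdh) and -0.43 to 0.043 (Rpl19), for oil against basal from -0.0095 to 0.40 (B2m) and -0.25 to 0.15 (Rpl19), for flaxseed against oil from -0.37 to 0.13 (B2m), -0.14 to 0.48 (Gapdh) and -0.32 to 0.019 (Rpl19), and for flaxseed against SDG from -0.35 to 0.22 (Actb). Ratio tests that passed numbered 0 to 6, with Actb/B2m from -0.76 to 0.78 (flaxseed against basal) and -0.78 to 0.76 (against oil), and Gapdh/Rpl19 from -0.72 to 0.77 (against oil) and -0.55 to 0.95 (against SDG). Without flaxseed 3 the relations that passed were 5 pairs and 2 ratios, with r of 0.33 (Rpl19 and B2m), 0.49 (Rpl19 and Gapdh), 0.059 (B2m and leukocyte) and -0.48 (Rpl19 and leukocyte).

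The within-cartridge alternative was not run, since the lane files carry no cartridge headers. Counts of B2m and Gapdh at the negative-control level limit flaxseed 3.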

Other observations

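In the authors' deposited log2 table, each column's closest lane was its own for 16 of 22 columns over 70 miRNAs with more than 100 counts in every lane, and all 6 exceptions were SDG columns, each closest to a different SDG lane. Over the 16 matching columns, the offset between the authors' deposited table and log2 background-subtracted counts followed the geometric mean of all endogenous probes after background subtraction, with a residual SD of 0.07. The residual SD was 1.04 for the geometric mean of the 4 housekeeping mRNAs, 2.34 for B2m alone, 1.44 for Gapdh, 0.77 for Actb and 0.57 for Rpl19, against 0.43 with no lane quantity.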
